A study of Mus musculus with 27 samples.

Results

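Limb muscle is not made by the limb bud itself. Its precursors leave the lateral lip of the somites and enter the bud, where they join mesenchyme of the lateral plate. The 8 genes described here, of 23279 genes listed, follow that path. They were taken by name. Pax3 and Pax7 are paired-box factors that specify the precursors. Lbx1, a homeobox factor, and Met, the receptor of hepatocyte growth factor, are needed for their migration. Eya1 is a transcriptional co-activator upstream of the muscle program. Myf5, Myod1 and Myog are the basic helix-loop-helix factors that set the muscle fate and start differentiation.

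The study asked how limb bud-like tissue made from mouse ES cells compares with limb buds, and RNA was sequenced from 27 libraries, 3 per group in 9 groups. The forelimb-type (ES-FLB) and hindlimb-type (ES-HLB) tissue came from the EB5 Hand2::GFP +/- line on day 9. Both arms were aggregates given BMP4 and Matrigel, then a BMP inhibitor (LDN193189) and Wnt3. Retinoic acid was added for the forelimb type and a retinoic acid antagonist for the hindlimb type. Hand2::GFP positive mesenchyme was then sorted by FACS from 96 aggregates. The reporter marks cells that use Hand2, a gene of lateral plate mesenchyme. The 7 other groups were tissues amputated from 3 Slc:ICR embryos, with no sorting named. They were early forelimb buds and hindlimb buds (early FLB, early HLB), E10.5 FLB and HLB, and 3 further E10.5 tissues, the tail bud (TB), branchial arch (BA) and heart (Ca). The labels give E10.0 for both early groups, while the study's figure legend stages the early HLBs later than the early FLBs. Strain, sorting and culture differ together between the ES-LBs and the embryonic tissues and cannot be told apart.

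Replicate 2 of the E10.5 HLBs has no values on several chromosomes and was left out, so that group has 2 libraries and 26 libraries were used. Levels are given throughout as CPM (reads of a gene relative to all gene reads of its library, set to a common total) after a further scaling between libraries. Libraries held 5543754 to 22142307 reads. Depth was greatest for the early limb buds and lowest for those of E10.5, and 3 reads corresponded to between 0.153 and 0.549 CPM per library. Limb bud markers fitted the labels, with the forelimb gene Tbx5 at a mean of 161 CPM in E10.5 FLBs against 0.18 in E10.5 HLBs, and the hindlimb gene Tbx4 at 170 CPM in E10.5 HLBs against 11.9. Neural tube markers (9 genes) summed to at most 1.06 CPM in every limb bud library. No source says that libraries of a group came from separate embryos or cultures, so p-values measure the spread between these libraries. In such bulk RNA, fewer precursor cells and less RNA per cell cannot be told apart.

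All 8 genes are protein coding. On GRCm38, Pax3 lies on chromosome 1 from 78101267 to 78197136, Pax7 on chromosome 4 from 139737059 to 139833530, Lbx1 on chromosome 19 from 45232684 to 45236841, and Eya1 on chromosome 1 from 14168953 to 14311035, all on the minus strand. Met lies on chromosome 6 from 17463349 to 17573980 and Myod1 on chromosome 7 from 46376474 to 46379092, both on the plus strand. Myf5 lies on chromosome 10 from 107482908 to 107486927 on the minus strand. Myog lies on chromosome 1 from 134290004 to 134292548 on the plus strand.

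The upstream region of Myog, a starter of muscle differentiation, is short and well studied, so it is printed here. RefSeq promoter windows of GRCm38.p6 were at hand for 4 of the 8 genes (Pax7, Met, Myf5 and Myog), and the 250 bases before the Myog start site are chr1:134289754-134290003, plus strand. Capitals mark E-boxes (CANNTG, the core that myogenic factors bind) and the MEF3 motif (TCAGGTT on either strand, a motif of muscle gene promoters).
Myog: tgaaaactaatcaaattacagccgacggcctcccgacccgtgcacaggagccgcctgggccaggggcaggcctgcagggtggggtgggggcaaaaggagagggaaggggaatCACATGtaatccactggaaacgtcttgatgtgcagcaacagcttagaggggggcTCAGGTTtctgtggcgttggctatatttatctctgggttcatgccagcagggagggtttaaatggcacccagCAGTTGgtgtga
The E-boxes began at -138 and -12 and the MEF3 motif at -84 from the start site, with no overlap. An E-box is found in 66.0% of 27025 promoter windows of this length and the MEF3 motif in 3.49%. The match is a description of the sequence and not of binding. Over the same length, Met held 1 E-box, and Pax7 and Myf5 held neither motif.

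The genes fell into different patterns over the 9 groups. Pax3 was highest in TB, where the 3 libraries had 77.0, 93.3 and 80.0 CPM. E10.5 FLBs had 17.0, 18.2 and 15.5 CPM, and E10.5 HLBs had 14.5 and 11.7. The TB libraries thus lay far above every other library. Early FLBs (12.6, 10.52 and 5.71 CPM), BA (11.4, 7.62 and 7.64) and early HLBs (12.3, 6.03 and 6.28) overlapped. The 3 groups with the lowest Pax3 were ES-HLB at 1.87, 1.95 and 1.17 CPM, ES-FLB at 0.834, 0.638 and 0.239, and Ca at 0.383, 0.559 and 0.134. Of the 8 steps between neighbours in this order, 5 did not differ beyond the spread, and the drops from TB to E10.5 FLB, from early HLB to ES-HLB and from ES-HLB to ES-FLB did.

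Pax7, the paralogue of Pax3, showed the same top group at a lower level. It had 9.92, 8.46 and 6.50 CPM in TB and at most 1.72 CPM in any other library. In the limb buds and BA it ranged from 0.531 to 1.72 CPM, and those 5 groups formed a run of neighbours that did not differ. The 3 ES-FLB libraries together held 1 Pax7 read and the 3 ES-HLB libraries 2, so no library of either reached the 3 reads set as the floor. Of its 8 steps 6 did not differ, the exceptions being TB over E10.5 FLB and E10.5 HLB over Ca.

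Lbx1 marks the migrating precursors of the limb, and it was the only one of the 8 genes with its highest means in limb buds of both stages. E10.5 FLBs had 7.64, 5.42 and 6.03 CPM and early FLBs had 8.08, 7.13 and 3.99. E10.5 HLBs had 6.41 and 4.96 CPM and early HLBs had 6.79, 2.61 and 2.83. The 4 limb bud groups overlapped and no step between them differed. ES-HLB (1.5, 2.79 and 1.87 CPM) and ES-FLB (1.79, 2.04 and 2.15) followed. BA (0.891, 0.693 and 1.06), Ca (0.128, 0.839 and 0.403) and TB (0.124, 0.232 and 1.03) were lowest, although TB had the most Pax3.

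Met was present in all libraries. TB had 70.3, 73.1 and 63.6 CPM, E10.5 FLBs 57.9, 54.2 and 47.2, and E10.5 HLBs 43.4 and 47.8. Early FLBs had 42.1, 42.6 and 44.3 CPM and early HLBs 30.3, 30.8 and 29.5, with no overlap between them. ES-FLB (17.7, 13.5 and 17.2), BA (12.7, 11.2 and 13.4), Ca (8.43, 12 and 9.95) and ES-HLB (7.86, 11.4 and 7.62) were all below every limb bud library. Met is also used by epithelia, so it is not a marker of muscle precursors alone.

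Eya1 ran in another order. It was highest in BA with 84.0, 86.1 and 70.7 CPM, followed by TB with 55.3, 53.9 and 59.7. ES-FLB with 33.6, 41.9 and 39.2 CPM and ES-HLB with 31.8, 34.4 and 28.8 were above all limb bud libraries. E10.5 FLBs (25.6, 24.5 and 26) and E10.5 HLBs (23.1 and 21.1) were above the early FLBs (15.7, 13.3 and 15.8) and early HLBs (16.5, 15.1 and 12.9), and Ca was lowest with 5.49, 4.76 and 6.32.

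**Figure D1:**
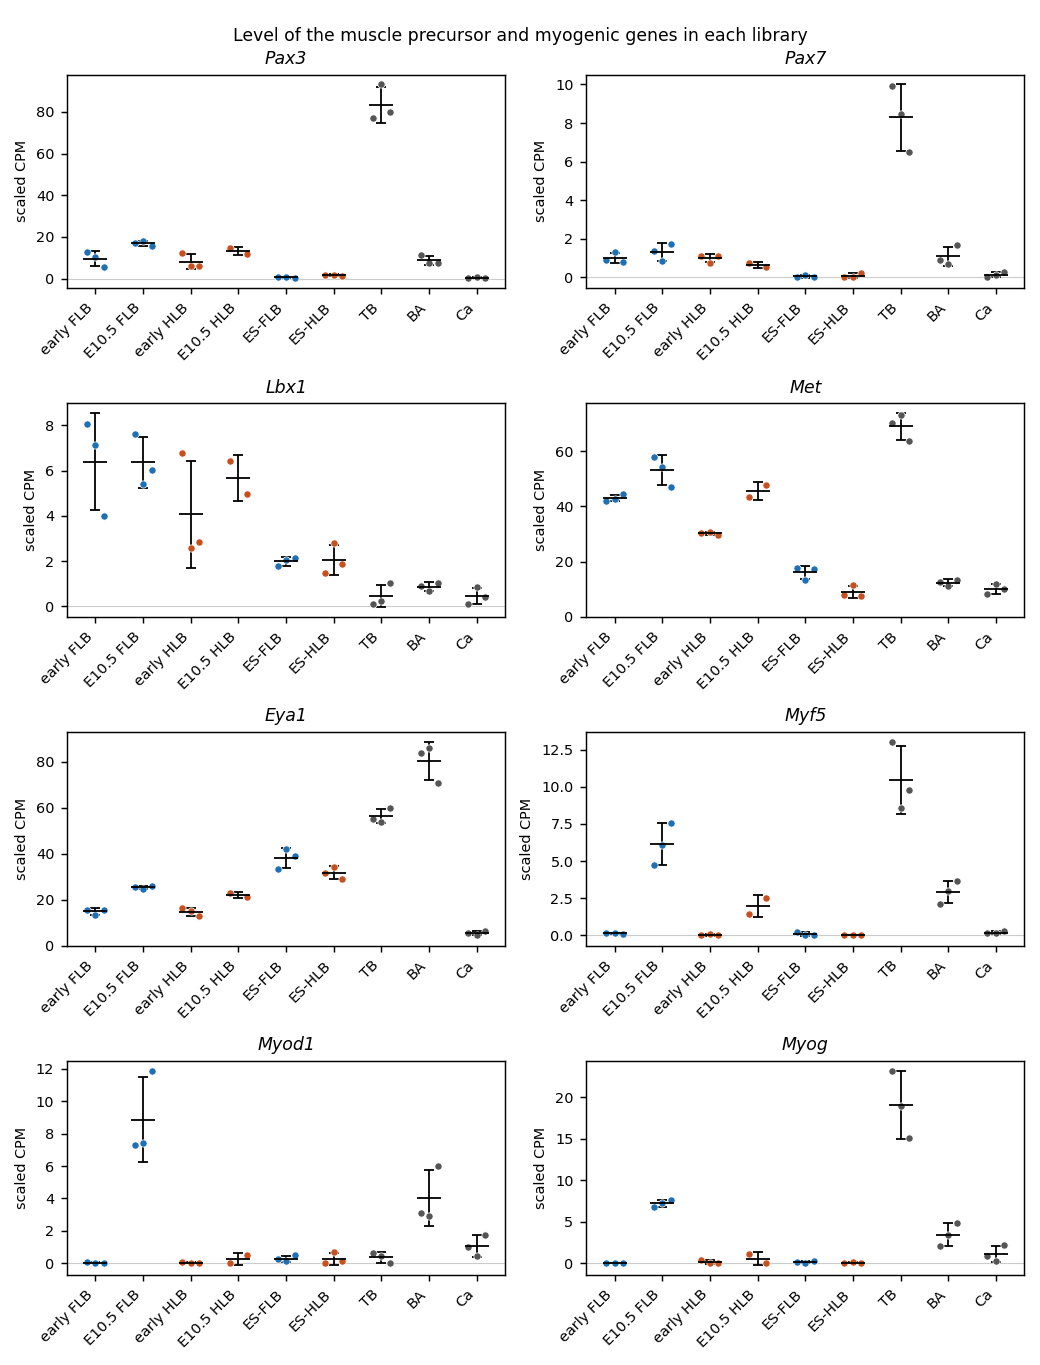
Scaled CPM (linear axis, a separate range for each gene) of the 8 genes in each of the 26 libraries, by group. Points are libraries, the bar and whiskers the mean and SD (n = 3, and 2 for E10.5 HLB). Pax3, Pax7, Met, Myf5 and Myog are highest in TB, Eya1 in BA, and Lbx1 and Myod1 in forelimb buds.

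The myogenic factors were nearly silent in early limb buds. Myf5 had 13, 8.58 and 9.80 CPM in TB, 4.75, 6.08 and 7.57 in E10.5 FLBs, 2.12, 3.0 and 3.64 in BA, and 1.47 and 2.48 in E10.5 HLBs. In every other group it was at or below 0.269 CPM, and the 3 ES-HLB libraries held no Myf5 read. Myog had 23.2, 19.0 and 15.04 CPM in TB, 6.79, 7.23 and 7.57 in E10.5 FLBs, 2.12, 3.35 and 4.82 in BA, and 1.10 and 0 in E10.5 HLBs. Myod1 did not follow them into TB. It had 7.30, 7.40 and 11.9 CPM in E10.5 FLBs, 3.12, 2.89 and 6.00 in BA and 1.02, 0.420 and 1.75 in Ca, and at most 0.697 CPM in any library of TB, ES-LBs or other limb buds. Both Myf5 and Myog dropped at each step from TB to E10.5 FLB to BA (adjusted p = 0.012 and 0.0030 for Myf5, 0.0041 and 0.046 for Myog), and Myod1 dropped at each step from E10.5 FLB to BA to Ca to TB (0.026, 0.00024 and 0.032).

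The first comparison was between stages. The early libraries were deeper (19642239 to 22142307 reads, against 5543754 to 5908846 at E10.5). Their replicates also differed more from each other, while the model shared 1 spread per gene over all groups. Stage and these library traits cannot be told apart. In the FLBs, 6 of the 8 genes were higher at E10.5 than in the early buds and none was lower, where 24.3% of the 14438 genes tested were called higher and 36.1% lower. The 3 myogenic factors rose most, by 3.40 ± 0.24 (SE) for Myf5, 4.14 ± 0.35 for Myod1 and 3.90 ± 0.37 for Myog on the log2 scale with a pseudocount of 0.5 (adjusted p = 9.0e-14, 2.3e-11 and 6.2e-10). Early FLBs held 7, 1 and 1 reads of these genes over 3 libraries and E10.5 FLBs 109, 157 and 128, although the early libraries were deeper. As a ratio of depth-corrected reads, Myf5 was 49.5 times higher (95% counting interval 23.3 to 126), Myod1 500 times (88.4 to 19857) and Myog 407 times (71.8 to 16212), and the fitted folds depend on the pseudocount. Intervals cover counting error only.

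The precursor genes moved less. Eya1 rose by 0.75 ± 0.11 (adjusted p = 2.7e-07), Pax3 by 0.85 ± 0.28 (0.011) and Met by 0.30 ± 0.12 (0.041). The 2 last calls were not firm. Pax3 was no longer called without early FLB replicate 3 (adjusted p = 0.093) or with a pseudocount of 0.1 (0.056). Met lost its call when any of the 6 libraries but E10.5 FLB replicate 3 was left out (adjusted p between 0.057 and 0.16). Pax7 and Lbx1 did not pass the test, with log2 differences of 0.24 ± 0.26 and 0.03 ± 0.33. The log2 change over all genes had a median of -0.08.

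In the HLBs, 3 of the 8 genes were called, all higher at E10.5, where 31.5% of the genes tested were called in either direction (1517 genes higher and 3033 lower). Myf5 rose by 2.18 ± 0.26 (adjusted p = 1.8e-07), from 2 reads over the 3 early HLB libraries to 22 over the 2 E10.5 HLB libraries. Met rose by 0.59 ± 0.14 (0.0017) and Eya1 by 0.56 ± 0.12 (0.00040). Pax3 differed by 0.71 ± 0.31 and was not called (0.087), though it was without early HLB replicate 1 (0.0083), the library highest in Pax3 and Lbx1 of its group. Without the same library Lbx1 was also called, at 0.93 ± 0.35 (0.043), against 0.54 ± 0.37 with it. Myod1 (0.48 ± 0.39) and Myog (0.58 ± 0.41) did not pass the test, on 3 and 6 reads in the E10.5 HLBs. All 6 Myog reads lay in replicate 1, so Myog was called without replicate 3 (1.42, 0.020) and turned to -0.26 without replicate 1.

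**Figure D2:**
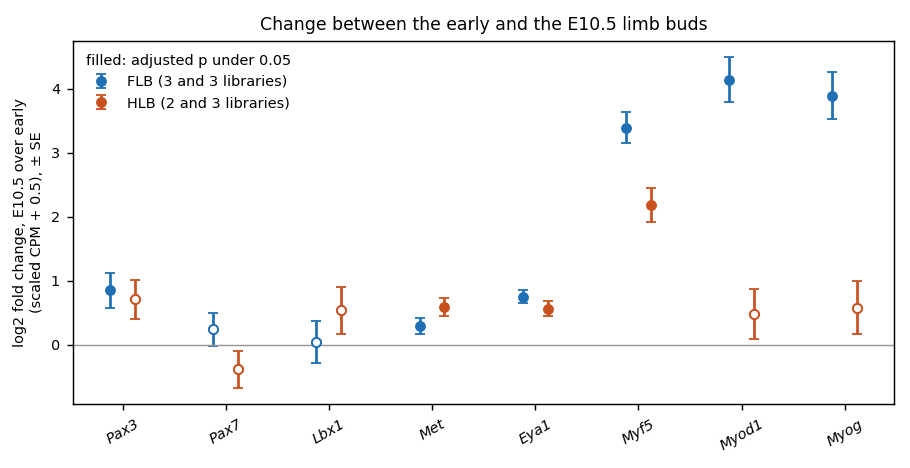
Log2 fold change between early and E10.5 buds for each gene, on scaled CPM plus 0.5, for FLBs (blue) and HLBs (orange), with SE. Filled points had an adjusted p under 0.05. Myod1 and Myog stand near 4 in the FLBs and near 0.5 in the HLBs.

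The difference between the limb types at E10.5 lay in the myogenic factors. Of the 8 genes, 3 were lower in E10.5 HLBs than in E10.5 FLBs and none was higher, where 9.79% of all genes were called lower and 12.7% higher. Myf5 was lower by a log2 difference of -1.43 ± 0.26 (adjusted p = 0.00020), Myod1 by -3.67 ± 0.39 (1.2e-07) and Myog by -3.10 ± 0.41 (5.3e-06). As depth-corrected reads, E10.5 FLBs exceeded E10.5 HLBs 3.09 times for Myf5 (95% counting interval 1.94 to 5.14), 32.7 times for Myod1 (11.0 to 160) and 13.3 times for Myog (5.95 to 37.0). In the E10.5 HLBs all 3 Myod1 reads lay in replicate 3 and all 6 Myog reads in replicate 1, so each of these ratios rests on 1 library, though both genes were called without either library. Pax3 (-0.36 ± 0.31), Lbx1 (-0.15 ± 0.37), Met (-0.21 ± 0.14) and Eya1 (-0.20 ± 0.12) did not pass the test. Pax7, at -0.64 ± 0.29, was not called (0.11) but was without E10.5 FLB replicate 2 (0.047). In the early buds only Met was called between limb types, lower in the HLBs by -0.50 ± 0.12 (0.0039), where 10.7% of all genes were called lower and 8.34% higher. Without early HLB replicate 1, Lbx1 was also called lower there (-1.05 ± 0.32, adjusted p = 0.026).

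The change with stage itself was tested between limb types. It was smaller in the HLBs for Myod1 (log2 difference of the changes -3.67 ± 0.53, adjusted p = 1.0e-05), Myog (-3.32 ± 0.55, 8.9e-05) and Myf5 (-1.21 ± 0.36, 0.013), where 9.38% of all genes were called lower and 12.8% higher. The Myf5 call was lost without E10.5 HLB replicate 1 (0.12) and with a pseudocount of 0.1 (0.41). The 5 precursor genes were not called. Because the early HLBs were staged later than the early FLBs, limb type and the span between stages cannot be told apart.

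Set against Pax3 in the same library, the mix of genes shifted with stage in the FLBs. These ratios of CPM do not correct for gene length and are compared only between libraries, with no test. Myf5, Myod1 and Myog together came to 1.11, 1.14 and 1.74 of Pax3 in E10.5 FLBs, 0.177 and 0.258 in E10.5 HLBs, and at most 0.0332 in any early limb bud. TB, with far more Pax3, had 0.478, 0.301 and 0.311. Lbx1 came to 0.641, 0.678 and 0.698 of Pax3 in early FLBs and 0.450, 0.297 and 0.389 in E10.5 FLBs, which did not overlap. It was 0.552, 0.432 and 0.450 in early HLBs and 0.443 and 0.424 in E10.5 HLBs, which did not separate. In the ES-LBs Lbx1 came to 0.80, 1.43 and 1.60 of Pax3 in ES-HLB, on 39 Pax3 reads over the 3 libraries, and to 2.14 and 3.20 in ES-FLB replicates 1 and 2, on 7 and 5 Pax3 reads. ES-FLB replicate 3 had 2 Pax3 reads, below the floor, and gives no ratio.

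**Figure D3:**
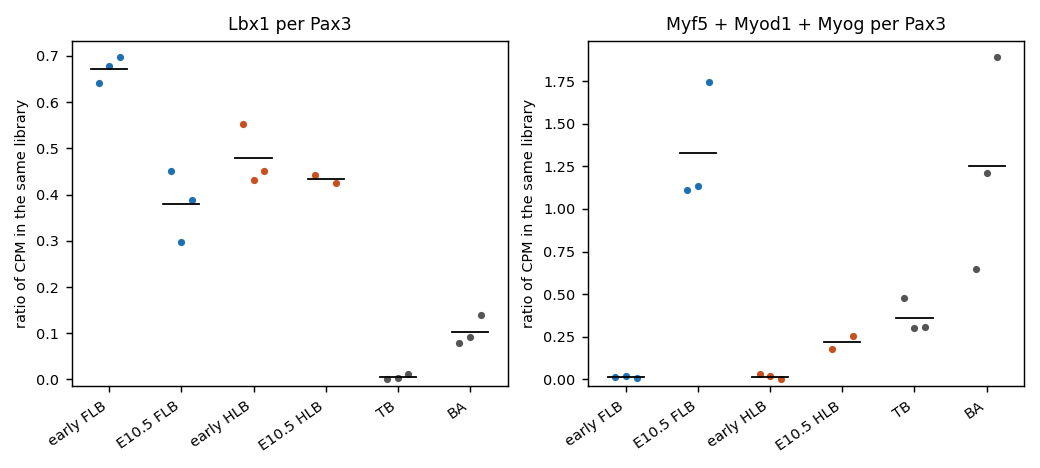
Ratio to Pax3, from CPM of the same library, of Lbx1 (left) and of the sum of Myf5, Myod1 and Myog (right), in the 4 limb bud groups, TB and BA. Points are libraries and lines group means (n = 3, and 2 for E10.5 HLB). The sum exceeds Pax3 in all 3 E10.5 FLB libraries and is at most 0.0332 in the early buds.

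Eya2, a paralogue of Eya1 that the migrating precursors also use, rose with stage as Eya1 did. In the FLBs it rose from a mean of 4.38 to 15.4 CPM (1.71, adjusted p = 5.8e-09) and in the HLBs from 4.86 to 8.71 CPM (0.77, 0.0075). The change was smaller in the HLBs (-0.94, 0.020), whereas that of Eya1 was not called different (-0.19 ± 0.16, 0.44).

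Skeletal muscle differentiation genes were scarce. Of 22 listed, 21 were in the table and 15 passed the filter on low values. Among the 15, Cav3 and Ckm passed through Ca alone (40.8 and 3.61 CPM) and had at most 0.12 CPM in other group means. Counts of the 15 thus include genes that could hardly be called between limb buds. In the FLBs 7 of the 15 were higher at E10.5 and 2 lower, with a median log2 change of 0.52, beside 24.3% higher, 36.1% lower and a median of -0.08 over all genes. Cdh15 (M-cadherin of myoblasts) rose from 0.60 to 8.35 CPM (3.0, adjusted p = 1.2e-11), and Vgll2, a co-factor of muscle transcription, from 0.11 to 1.52 CPM (1.73, 1.3e-07). Myh3, the embryonic myosin heavy chain, rose only from 0.37 to 1.45 CPM (1.13, 0.013). In the HLBs 1 of the 15 was higher, Myh3 (1.52, 0.0079), and Cdh15 had mean levels of 0.75 CPM in early and 1.07 in E10.5 buds, which did not differ (0.25, 0.56). Among 12 striated muscle genes shared with heart, 2 were higher and 3 lower in the E10.5 FLBs, with a median of -0.02, and 0 were higher and 2 lower in the E10.5 HLBs, with a median of -0.03, beside -0.06 over all genes there. The 2 higher in the FLBs were the troponin gene Tnnt1 (2.17, 3.4e-09) and the myosin light chain gene Myl1 (1.42, 1.1e-06). The 12 include Smpx, which passed the filter through Ca alone and had at most 0.20 CPM in other group means.

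The genes that guide the precursors into the limb changed in both directions. Of 9 specification and migration partners, 4 were higher and 4 lower in E10.5 FLBs than in early FLBs, beside 24.3% and 36.1% of all genes. Hgf, the ligand of Met made by limb mesenchyme, fell by 1.03 on the log2 scale (adjusted p = 8.4e-05), from 28.5 to 13.7 CPM. Cxcr4, a chemokine receptor of migrating precursors and of endothelium, rose from 1.80 to 15 CPM (2.73, 7.2e-16), and its ligand Cxcl12 from 38.2 to 111 CPM (1.52, 6.1e-11). Meox2, a homeobox gene of limb muscle precursors and mesenchyme, rose from 6.00 to 81.0 CPM (3.66, 2.0e-12). In the HLBs 4 of the 9 were higher and none lower, beside 1517 higher and 3033 lower of the 14438 genes tested, and Hgf was not called (-0.23, 0.48). The rise was smaller in the HLBs for Cxcr4 (-2.01, 2.1e-07) and Meox2 (-1.85, 0.00031).

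Markers of neighbouring tissue moved with the E10.5 FLBs in part. The 5 neural crest and glia markers summed to between 18.8 and 23.5 CPM there, against 12.6 to 13 in early FLBs and 12.3 to 13.5 in E10.5 HLBs, and none of the 5 was at 0 in all libraries of these groups. Pax1, a gene of the sclerotome and the shoulder girdle, was at 44.1 CPM against 0.20 in early FLBs and 4.51 in E10.5 HLBs. Somite and dermomyotome genes went both ways. Tcf15, a dermomyotome factor, had a mean of 9.45 CPM in E10.5 FLBs against 5.40 in early FLBs. Of the somite genes Tbx6 and Uncx, E10.5 FLBs had 0.73 and 0.06 CPM, and Meox1 fell by 0.92 (adjusted p = 0.00025). In E10.5 FLBs against early FLBs, 4 of the 10 somite and dermomyotome genes tested were higher and 2 lower. Of those tested, Mesp2 passed the filter through TB alone (6.28 CPM there). Over all genes, 24.3% were called higher and 36.1% lower. The 5 heart markers summed to at most 2.58 CPM. The part of tissue taken along in the myogenic factors was not tested.

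The next question was whether the sorted ES-LB mesenchyme held these genes. Against the early FLBs, 4 of the 8 genes were lower in ES-FLB and 1 was higher, where 41.4% of all genes were called lower and 35.3% higher. Against the early HLBs, ES-HLB gave the same counts, where 40.5% were lower and 34.8% higher. Such shares mean that a call by itself says little here, and the sizes matter more. Pax3 was lower by -3.21 ± 0.28 in ES-FLB (adjusted p = 1.3e-10) and by -1.96 ± 0.28 in ES-HLB (7.6e-07). Met was lower by -1.39 ± 0.12 (1.8e-11) and -1.72 ± 0.12 (1.8e-13), and Pax7 by -1.47 ± 0.26 (5.7e-06) and -1.38 ± 0.26 (1.5e-05).

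Lbx1 remained measurable in the ES-LBs, unlike Pax7. It was lower by -1.42 ± 0.33 in ES-FLB (adjusted p = 0.00034), which was called under all 16 alternatives. In ES-HLB it was lower by -0.76 ± 0.33 (0.039), and that call was lost in 10 of 16 alternatives, among them both other scalings (0.14 and 0.068) and the fits without early HLB replicate 1 (-0.36 ± 0.32, 0.31), ES-HLB replicate 1 (0.15) or ES-HLB replicate 3 (0.089). The 3 ES-FLB libraries held 49 Lbx1 reads and the 3 ES-HLB libraries 48. Eya1 was the 1 gene that was higher, by 1.33 ± 0.11 (4.9e-13) in ES-FLB and 1.07 ± 0.11 (8.4e-11) in ES-HLB. The myogenic factors were not called against the early buds, where both sides were at or near the floor, except Myod1 in ES-FLB with a pseudocount of 0.1 (1.62, adjusted p = 0.045), on 7 reads against 1.

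Against the E10.5 limb buds, all 8 genes were called in ES-FLB, 7 of them lower, where 35.7% of all genes were called lower and 32.9% higher. Myf5 was lower by -3.52 ± 0.24, Myod1 by -3.57 ± 0.35, Myog by -3.65 ± 0.37 and Pax3 by -4.06 ± 0.28 (adjusted p at most 1.5e-09). ES-FLB held 2 Myf5, 7 Myod1 and 3 Myog reads in all. In ES-HLB 5 genes were lower and 1 higher than in the E10.5 HLBs, where 35.6% were called lower and 32.9% higher. Myf5, with no read in ES-HLB, was at least 15.7-fold higher in the E10.5 HLBs, taking 3 reads over the summed ES-HLB libraries as the floor. Myod1 (-0.00 ± 0.39) and Myog (-0.72 ± 0.41) were not called, and both were also low in the E10.5 HLBs. Myog turned to 0.12 without E10.5 HLB replicate 1 and was called without replicate 3 (-1.56, 0.0029). Eya1 was higher in both ES-LB types, by 0.58 ± 0.11 (1.6e-05) and 0.51 ± 0.12 (0.00032).

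**Figure D4:**
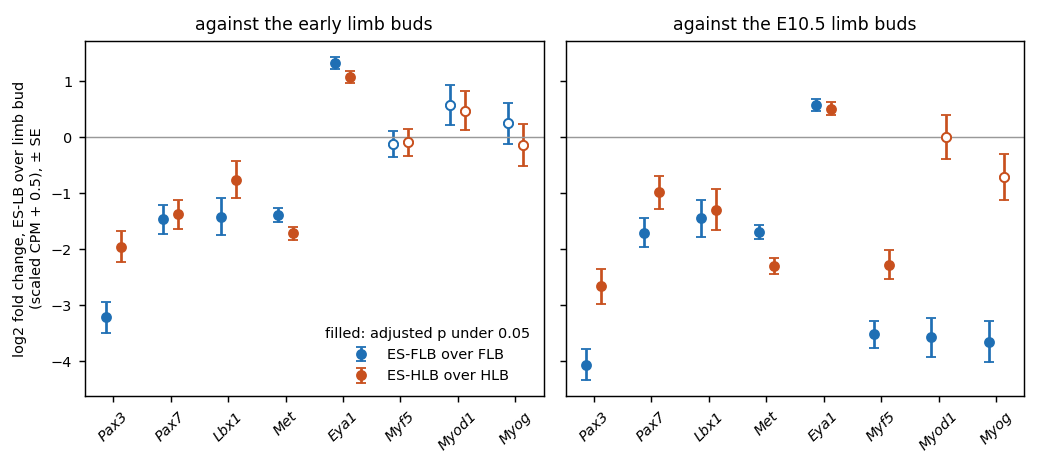
Log2 fold change of ES-FLB over FLBs (blue) and ES-HLB over HLBs (orange), on scaled CPM plus 0.5 with SE, against the early buds (left) and the E10.5 buds (right). Filled points had an adjusted p under 0.05. Pax3, Pax7, Lbx1 and Met lie under 0 in all 4 comparisons and Eya1 above it.

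Other cell types differed between the sorted and the unsorted samples as well. The 5 endothelial markers summed to between 22.6 and 38.9 CPM in the ES-LBs and 253 to 372 in the limb buds, and the 5 surface ectoderm markers to 67.9 to 133 against 212 to 298. The 5 blood markers summed to 5.25 to 161 CPM against 2369 to 7009, and none of these 15 genes was at 0 in all libraries of a group. Their part in the lower Met and Pax3 was not tested. Limb mesenchyme genes (6) summed to 678 to 1005 CPM in the ES-LBs and 599 to 1299 in the limb buds. The largest part in the ES-LBs was Prrx1, at means of 451 CPM in ES-FLB and 631 in ES-HLB. Lmx1b had 1.09 and 0.71 CPM there, against 24.0 to 46.2 in the limb bud groups. In ES-HLB Tbx4 had 55.2 CPM and Pitx1 68.6, against 139 and 245 in early HLBs. Hand2 went the other way, at 153 and 231 CPM in the ES-LBs against at most 149 in the limb bud groups. The ES-LB cells were sorted by the Hand2 reporter and the limb buds were not, so this is no measure of mesenchyme content. Hand2 is also among the 6 limb mesenchyme genes summed above.

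Eya1 and its paralogue did not share a direction in the ES-LBs. Eya2 was lower than in the early FLBs by -1.08 in ES-FLB (adjusted p = 1.0e-05), and in ES-HLB it was not called (-0.41, 0.059). Genes of head muscle precursors also differed among themselves. Msc (musculin), a repressor found in jaw muscle precursors, was at 12 CPM in ES-FLB against 0.12 in early FLBs (4.32, 7.1e-15) and Tcf21 at 18.7 against 1.72 (3.19, 1.3e-05), while Tbx1 was at 1.06 against 1.27 CPM and was not called. Lhx2, which limb mesenchyme also uses, was lower (-4.08, 2.0e-10). The 15 muscle differentiation genes again held Cav3 and Ckm, at most 0.11 CPM in the limb bud and ES-LB group means. Of the 15, 2 were higher and 5 lower in ES-FLB than in early FLBs, beside 35.3% and 41.4% of all genes. Against early HLBs, 2 were higher and 2 lower in ES-HLB, beside 34.8% and 40.5%. Against the E10.5 FLBs, 1 was higher and 9 lower in ES-FLB, beside 32.9% and 35.7%. Against the E10.5 HLBs, 3 were higher and 2 lower in ES-HLB, beside 32.9% and 35.6%.

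ES-HLB and ES-FLB differed in 2 of the 8 genes, 1 in each direction, where 10.8% of all genes were called higher and 8.89% lower. Pax3 was higher in ES-HLB by 1.04 ± 0.28 (adjusted p = 0.0087), and its libraries did not overlap those of ES-FLB. The call was lost without ES-FLB replicate 3 (0.069), the library with the lowest Pax3. Met was lower in ES-HLB by -0.83 ± 0.12 (9.1e-06). Eya1, at -0.26 ± 0.11, was not called (0.078) but was without ES-FLB replicate 1 (0.032). In the embryo Pax3 did not differ between early HLBs and FLBs (-0.22 ± 0.28), and the difference in vitro minus that in vivo was 1.26 ± 0.39 (0.024), where 11.4% of all genes were called higher and 8.61% lower. That call was lost in 8 of 22 alternatives (adjusted p 0.058 to 0.078), among them leaving out early FLB replicate 1 or 2, early HLB replicate 2 or 3, ES-FLB replicate 3, or ES-HLB replicate 1 or 2. The 9 neural tube markers, of tissue that also uses Pax3, summed to at least 23.6 CPM in each ES-HLB library and at most 12.8 in ES-FLB. Most of the sum was Sox2, at means of 22.8 and 8.71 CPM. Sox1 was at 1.28 and 1.17, Sox3 at 1.71 and 0.33, and Pax6 at 0.13 and 0.04 CPM. Of the 9 markers, 3 were above the floor in every ES-HLB library and 2 in every ES-FLB library. Their part in the Pax3 difference was not tested. The limb type difference of Met was not called between in vitro and in vivo (-0.33 ± 0.18, 0.21), except without ES-HLB replicate 2 (-0.50, 0.027).

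The 3 other tissues of the embryo show what the genes look like outside the limb. Against the mean of the E10.5 FLBs and HLBs, 6 of the 8 were higher and 2 lower in TB, where 22.5% of all genes were called higher and 23.7% lower. Myog was higher by 2.88 ± 0.33 (adjusted p = 4.2e-08), Pax7 by 2.62 ± 0.23 (3.6e-11), Pax3 by 2.45 ± 0.25 (1.3e-08), Myf5 by 1.44 ± 0.21 (1.2e-06), Eya1 by 1.23 ± 0.10 (1.6e-12) and Met by 0.48 ± 0.11 (0.00069). Lbx1 was lower by -2.87 ± 0.30 (5.0e-09) and Myod1 by -1.65 ± 0.32 (7.7e-05). For Myod1 the mean is carried by the FLBs, and TB did not differ from the E10.5 HLBs alone (E10.5 HLB minus TB -0.18 ± 0.39, adjusted p = 0.75). Pax3 and Pax7 are also genes of the dorsal neural tube, and the 9 neural tube markers summed to 156 to 174 CPM in TB. Their part in the higher Pax3 and Pax7 was not tested. Somite genes were abundant in TB, with 9 of 10 tested higher and 1 lower. Mesp2 (6.28 CPM in TB, at most 0.31 in other group means) passed the filter through TB alone. The count is thus partly set by the filter and is no test of TB. Meox1 reached a mean of 308 CPM, Uncx 41.1 and Tbx6 47.1.

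In BA, a tissue that holds precursors of jaw muscle, 1 of the 8 was higher and 3 were lower than in the mean of the E10.5 limb buds, where 16.2% of all genes were called higher and 17.2% lower. Eya1 was higher by 1.74 ± 0.10 (adjusted p = 7.8e-16). Lbx1 was lower by -2.24 ± 0.30 (9.3e-07), Met by -1.94 ± 0.11 (1.2e-14) and Pax3 by -0.73 ± 0.25 (0.026). The Pax3 call was lost without BA replicate 2 (0.10), BA replicate 3 (0.12) or E10.5 HLB replicate 1 (0.088). For Myod1 and Myog, BA lay between the limb types. It was below the E10.5 FLBs (E10.5 FLB minus BA 1.09 ± 0.35, adjusted p = 0.026, and 1.03 ± 0.37, 0.046) and above the E10.5 HLBs (E10.5 HLB minus BA -2.58 ± 0.39, 5.8e-06, and -2.08 ± 0.41, 0.00024). Myf5 was below the E10.5 FLBs (0.96 ± 0.24, 0.0030) and not called against the E10.5 HLBs (-0.47 ± 0.26, 0.16). Against the mean of both, Myod1 differed by 0.75 ± 0.32 and was not called (0.069). It was called without E10.5 FLB replicate 3 (0.043) or E10.5 HLB replicate 3 (0.023), and Myog was called without E10.5 HLB replicate 1 (0.94 ± 0.31, 0.023, against 0.52 ± 0.33 with it). Of 6 head muscle precursor genes, 4 were higher in BA and 1 was lower. Tbx1 (1.74, 0.00024) and Tcf21 (2.50, 0.00032) were among those higher. Lhx2 had a mean of 7.48 CPM in BA, against 76.1 in E10.5 FLBs and 137 in E10.5 HLBs. Msc had 4.76 CPM in BA, against 5.00 in E10.5 FLBs and 0.53 in E10.5 HLBs.

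In Ca all 8 genes were lower than the mean of the E10.5 FLBs and HLBs, where 39.8% of all genes were called lower and 37.1% higher. Pax3 was lower by -4.19 ± 0.25 (adjusted p = 8.6e-14) and Eya1 by -2.01 ± 0.10 (7.0e-19). Myod1 (-0.81 ± 0.32, 0.023) and Myog (-0.88 ± 0.33, 0.018) were low but present in heart, with 24 and 25 reads over the 3 libraries. Their lower call comes from the FLBs, since against the E10.5 HLBs alone Myod1 was higher in Ca (E10.5 HLB minus Ca -1.03 ± 0.39, adjusted p = 0.021) and Myog was not called (-0.67 ± 0.41, 0.14), while the other 6 genes were lower in Ca than in either limb type. Both calls ended without Ca replicate 2 (0.22 and 0.22). That of Myod1 also ended without E10.5 FLB replicate 3 (0.054) or E10.5 HLB replicate 3 (0.15), and that of Myog without E10.5 HLB replicate 1 (0.18). With a pseudocount of 0.1 neither was called (0.47 and 0.31). The 12 striated muscle genes were listed because heart shares them, so all 12 being higher in Ca was given by the choice. Some, such as Smpx (297 CPM in Ca, at most 0.20 in other group means), passed the filter through Ca alone. Actc1, cardiac actin, had a mean of 7829 CPM in Ca.

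Genes with the profile most like each member over the 26 libraries were found by Pearson's r of log2 levels among 12689 genes. These are descriptions across libraries that share groups and depth. Pax3 was closest to Tcf15, a dermomyotome factor (r = 0.956), and Pax7 to the same gene (0.936), with 58.4 CPM in TB against at most 9.45 in other group means. Lbx1 was closest to Rspo4 (0.895), Lix1 (0.893) and Ikzf5 (0.887), then to the limb genes Lhx2 (0.866) and Cyp26b1 (0.860). Met was closest to Upk1a (0.898) and Eya1 to Foxd2 (0.935). Myf5 and Myog were both closest to Cdh15 (0.930 and 0.903), whose means were 11.0 CPM in TB, 8.35 in E10.5 FLBs and 6.08 in BA. Myod1 was closest to H13 (0.861).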

How the data were processed

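From stranded mRNA libraries read at one end, the authors aligned reads to mm10 (HISAT2 2.0.4), quantified genes with Cuffdiff and edgeR 3.16.2, and deposited CPM for 23279 genes and 27 libraries. The submitters' notes name Cufflinks 2.1.1 and FastQC 0.11.5. The steps of low values gave each library's reads. Member values lay within 0.000995 reads of whole numbers, but 95.7 to 96.6% of low values were whole (within 0.1 reads) in 6 early limb bud libraries and 98.9 to 99.5% in 20 others, so the table was not treated as counts. Libraries were scaled by an unweighted trimmed mean of log ratios (30% and 5% trimmed). The filter kept genes that reached 1 CPM in 3 or more libraries (14438, all 8 members included). Tests used log2(CPM + 0.5) and limma 3.58.1 (trend, robust) in 1 model of 9 groups, two-sided, Benjamini-Hochberg over all genes, threshold 0.05. Data were simulated for E10.5 FLB against early FLB, with the same added spread for every gene. Genes to be changed were drawn from those with a mean of at least 5 CPM. Of these, 200 of 200 genes changed 4-fold were recovered, with 22 false calls among 14496 genes. As a share of all calls, the false ones were above the threshold of 0.05. Recovery of genes at lower levels, Pax7, Lbx1, Myf5, Myod1 and Myog among them, was not tried. Pax7 reached 1 CPM in all libraries of 1 group, Myod1 of 2, Myog of 3 and Myf5 of 4. Replicates of a group differed beyond sampling noise (chi-square per gene 1.49 to 9.68). The highest values lay in the early limb buds (5.34 to 9.68), which were also the deepest libraries. The E10.5 limb buds had 1.49 to 1.82. Same-numbered libraries did not deviate together (r between -0.0869 and 0.0997 over 24 pairs), so numbers were not treated as pairs. Named genes were the 8 members, up to 4 genes of each of 6 lists of related genes, of which some are not reported here, markers, and the 5 most alike genes of each member with a group mean of at least 4 CPM. The members and lists were chosen with earlier results of these data known.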

Additional observations from a re-analysis of the deposited data

Results flagged for a closer look

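The change from early to E10.5 buds differed between limb types for 3 genes, by a test of the difference itself. On the log2 scale it was smaller in HLBs by -3.67 for Myod1, -3.32 for Myog and -1.21 for Myf5. For Pax3, the difference between ES-HLB and ES-FLB (1.04) minus that between early HLB and early FLB (-0.22) was 1.26, a call lost in 8 of 22 alternatives.

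Replicate 2 of the E10.5 HLBs entered no comparison, and it held signal above its floor of 3 reads for 4 of the genes. Pax3 was at 16.7 CPM, Lbx1 at 5.87, Eya1 at 23.5 and Myog at 0.734. In this library 4216 values listed at 0 were taken as missing, Met among them. Myf5 was at 0.367 CPM, and Pax7 and Myod1 were listed at 0, where a lost value and an absent transcript cannot be told apart.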

How the results depend on the processing

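The direction of the 8 genes' calls was kept under 2 other scalings, 2 other pseudocounts, other filters and limma without trend and robust, with counts per comparison within 1.5 times. With only the compared groups, ES-HLB against early HLB gave 3 calls in place of 5 and the in vitro against in vivo difference 0 in place of 1. With E10.5 HLB replicate 2 kept, E10.5 HLB against early HLB gave 5 in place of 3; the Pax7 call gained there rests on a value listed at 0.

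Leaving out 1 library at a time gave 3 to 5 calls for E10.5 HLB against early HLB, 1 to 2 for early HLB against early FLB, 1 to 3 for ES-HLB against ES-FLB and 0 to 1 for the in vitro against in vivo difference. Counts for the other comparisons stayed within 1.5 times. Without E10.5 HLB replicate 1, which holds all 6 Myog reads of its group, Myog turned to -0.26 for E10.5 HLB against early HLB and to 0.12 for ES-HLB against E10.5 HLB, uncalled in both; without replicate 3 it was called, at 1.42 and -1.56. With the replicate number as a block, every count stayed within 1.5 times; Lbx1 lost its call in ES-HLB against early HLB (adjusted p = 0.053), and Pax3 gained 1 in E10.5 HLB against early HLB (0.012).

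Without scaling, the share of higher calls over all genes moved by over 10 points in 11 of 14 comparisons, for example from 40.2% to 66.6% for E10.5 FLB against early FLB and from 57.7% to 26.3% for the stage difference. With median-of-ratios scaling it moved from 33.3% to 43.5% for E10.5 HLB against early HLB and from 56.5% to 46.4% for E10.5 HLB against E10.5 FLB. The log2 median of all genes moved most for ES-FLB against early FLB, from -0.05 to 0.22. The edgeR test on whole reads was not run, since the table does not give whole reads throughout. Depth limits Pax7, Myf5, Myod1 and Myog where groups hold under 10 reads, mostly ES-LBs and early buds.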
